A study of Homo sapiens with 12 samples.

Results

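Genes known to be switched on by p53 were examined in a knockdown experiment on mantle cell lymphoma cells. A list of 34 such genes was taken as given, and each gene was read from 1 probe set, the one with a single gene symbol and the highest mean log2(signal + 3) over the arrays. A probe set of that kind was found for 31 of the 34 genes, out of 19775 genes measured, and 27 of them passed a filter on low signal that kept 11548 genes. BBC3, which encodes the death protein PUMA, lay only on a probe set with several symbols, and FDXR, BTG2 and BBC3 were not analysed here. GDF15, PLK2, SPATA18 and EDA2R were measured but lay under the filter.

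The cells were 2 established human lines, Z-138, labelled with a TRAF2 nonsense change, and Maver-1, labelled with a TRAF3 deletion. Each line carried 1 of 3 doxycycline-inducible hairpins under puromycin selection. These were NIKsh#1 and NIKsh#2, which target MAP3K14, the gene of the kinase NIK, and a non-targeting control (NTC). All 6 cultures held a hairpin and were kept in puromycin, and each was grown for 7 days with 100 ng/ml or 0 ng/ml doxycycline, giving 1 array per condition and 12 arrays in all. Each hairpin was thus represented by 1 culture per line, no label says that cultures were repeated independently, and the p-values therefore reflect no more than the scatter among these cultures, which may be technical.

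p53 is a transcription factor that is held low in resting cells by the ubiquitin ligase MDM2 and its relative MDM4. DNA damage or other stress frees it, and it then binds paired half-sites near its target genes. Its targets halt the cell cycle, repair DNA, alter metabolism, promote cell death, or feed back on p53 itself. NIK acts in another route, alternative NF-kB signalling, and both TRAF2 and TRAF3 belong to the complex that marks NIK for degradation. Neither p53 protein nor NIK protein was measured, and the gene that encodes p53 was not analysed here.

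To show what a p53 half-site looks like next to these genes, the RefSeq promoter windows of GRCh38.p14 were searched on both strands for the half-site consensus, a run of purines, then C, a pair of A or T bases, G, and a run of pyrimidines. Each window ran from 250 bases before to 50 bases after a start site. The consensus occurred in the windows of 6 of the 29 listed genes that had one (20.7%), namely SESN1, FDXR, DDB2, PLK2, AEN and RPS27L, against 8.06% of 27305 genes. A separate motif, a pair of CATG cores 6 bases apart with no demand on the bases around them, was found in TRIAP1 (3.45% of the listed genes against 0.472% of all genes). A match is only a run of letters, and many known p53 sites lie outside such windows. The matches of 3 measured genes that are described below are shown 5′ to 3′ on the gene's strand, with the half-site in capitals. SESN1 is shown for its signal in Z-138, AEN and RPS27L as genes with small differences between the untreated lines on the probe set used. The matches start 49 bases before the start site in SESN1 (chr6:109009003-109009062, minus strand), 34 in AEN (chr15:88621281-88621339, plus strand) and 59 in RPS27L (chr15:63157502-63157561, minus strand).
SESN1: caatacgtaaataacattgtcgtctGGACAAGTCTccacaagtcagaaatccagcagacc
AEN: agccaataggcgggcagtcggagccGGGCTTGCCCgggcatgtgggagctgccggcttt
RPS27L: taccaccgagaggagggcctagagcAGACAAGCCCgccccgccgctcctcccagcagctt

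All arrays had the same trimmed mean signal of 150.02, and their medians ran from 10.6 to 14.1. The ACTB 3' to 5' ratio, which reflects how intact and how evenly amplified the RNA was, stood at 4.62, 5.09 and 6.34 with doxycycline in Z-138 NIKsh#1, NIKsh#2 and NTC, against 2.86, 2.92 and 2.33 without it. In Maver-1 the ratios were 4.32, 3.80 and 4.43 with doxycycline, against 4.68, 3.66 and 6.88 without. MAP3K14 was lower by 0.42 ± 0.18 on the log2 scale with doxycycline in the 4 NIKsh cultures, which did not pass (limma, adjusted p = 0.529). Its log2 changes were -0.68 and -0.08 in Z-138 NIKsh#1 and NIKsh#2 and -0.44 and -0.49 in Maver-1 NIKsh#1 and NIKsh#2, against 0.24 and 0.76 in the NTC cultures of Z-138 and Maver-1, so Z-138 NIKsh#2 had almost no measured loss of its target. The B cell marker MS4A1 had signals of 2767.1 to 3942.6 in Z-138 and 3287.1 to 4005.8 in Maver-1. CD5, a mantle cell lymphoma marker, lay at 0.5 to 1.6 in Z-138 and 33.7 to 70.8 in Maver-1. SOX11, another such marker, was brighter in Z-138, with Z-138 signals of 1712.2 to 3023.8 against Maver-1 signals of 455.5 to 1382.2. CCND1, also such a marker, was well above the filter value of 12.55 in both lines. It was dimmer in Z-138 (496.7 to 1264.0, against 2599.8 to 3030.6 for Maver-1). Genes of other cell types were not all low. Among T and NK cell markers, CD3D and CD3E did not exceed 8.3 on any array, but CD8A reached 13.2 and NKG7 22.0, and CD3G ran from 56.6 to 177.5 in Z-138. Among monocyte markers, CD14 did not exceed 3.1 and LYZ reached 25.3. The endothelial gene PECAM1 ran from 44.8 to 397.0 in Z-138 and 549.7 to 929.1 in Maver-1, the epithelial gene EPCAM from 173.0 to 314.4 in Maver-1, and the collagen gene COL1A1 from 76.1 to 244.2 in Z-138.

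The first comparison asked how the lines differed before induction, in 3 untreated cultures of each. A group of p53 target genes stood higher in Z-138, among them the genes of the cell cycle inhibitor p21 and of both p53 inhibitors, while a smaller group led by GADD45A stood higher in Maver-1. Of the 27 genes, 11 were higher in Z-138 (40.7%, against 25.4% of all genes tested) and 7 were lower (25.9%, against 34.6%; limma, adjusted p under 0.05). The 11 include PHLDA3, which passed the signal filter only through Z-138. The median difference of the 27 genes was 0.21 log2 units, and that of all genes was -0.08. In either direction 66.7% of the 27 genes passed, against 60.0% of all genes, a share near the background. The ACTB 3' to 5' ratio separated the same arrays, at 2.33 to 2.92 in untreated Z-138 and 3.66 to 6.88 in untreated Maver-1, and its part in the difference was not tested. In a bulk culture, fewer cells expressing a gene and less RNA per cell cannot be told apart.

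Among the arrest genes, CDKN1A, which encodes the cyclin-dependent kinase inhibitor p21, had signals of 1304.3, 1248.2 and 903.6 in untreated Z-138 NIKsh#1, NIKsh#2 and NTC. In the matching Maver-1 cultures its signals were 263.3, 239.3 and 280.8. The groups lay far apart, a difference of 2.11 ± 0.13 log2 units or 4.33-fold (limma, adjusted p = 3.25e-08). GADD45A, a stress sensor that activates the p38 and JNK kinases, ran the other way, with 43.8, 55.7 and 49.5 in Z-138 and 586.6, 609.9 and 488.8 in Maver-1. It was 10.7-fold lower in Z-138 (-3.42 ± 0.14, adjusted p = 9.18e-10), the widest gap among the 27 genes. CCNG1, cyclin G1, was 1.22-fold higher in Z-138 (0.29 ± 0.08, limma adjusted p = 0.00642).

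All 3 feedback genes were higher in Z-138, as were 25.4% of all genes. MDM2, the ligase that marks p53 for destruction, had 3305.6, 3203.3 and 2879.7 in Z-138 NIKsh#1, NIKsh#2 and NTC, against 2219.2, 2308.0 and 2457.7 in Maver-1. MDM4, which blocks the activation domain of p53, had 1563.0, 1314.3 and 1495.0 in Z-138, against 1014.2, 999.0 and 969.4 in Maver-1. PPM1D, the phosphatase that returns p53 and its kinases to rest, had 616.2, 599.7 and 512.1 in Z-138, against 318.5, 307.9 and 295.5 in Maver-1. None of these ranges overlapped between the lines. The share of all genes that separate on the untreated arrays was not counted, and 60.0% of all genes passed between the untreated lines. In limma the differences were 0.42 ± 0.07 for MDM2 (adjusted p = 0.00027), 0.55 ± 0.09 for MDM4 (adjusted p = 0.000142) and 0.90 ± 0.10 for PPM1D (adjusted p = 8.36e-06). Every other MDM2, MDM4 and PPM1D probe set above the filter also had a positive difference, of 0.16 to 1.19 over the 9 of MDM2, 0.55 to 1.83 over the 5 of MDM4 and 0.90 to 1.81 over the 2 of PPM1D.

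The death genes fell on both sides, with 3 of 9 higher and 4 lower in Z-138, against 25.4% and 34.6% of all genes. This split was not far from that of all genes. PHLDA3, which competes with AKT for membrane lipids, had 27.7, 49.3 and 22.5 in Z-138 NIKsh#1, NIKsh#2 and NTC, against 3.7, 3.3 and 2.0 in Maver-1, where it was near the floor. It passed the signal filter only through Z-138, so the Maver-1 side is no measured level and the size of the difference follows the pseudocount, at 3.04, 2.53 and 1.33 log2 units with pseudocounts of 1, 3 and 16. It is counted as higher in Z-138, with no size given to the difference. NINJ1, which drives rupture of the plasma membrane in dying cells, was higher by 0.70 ± 0.15 (limma, adjusted p = 0.00128). TRIAP1, a mitochondrial inhibitor of apoptosis, was higher by 0.37 ± 0.07 (limma, adjusted p = 0.000827). The genes that were lower in Z-138 included TP53I3, an oxidoreductase that forms reactive oxygen species, with 20.4, 13.8 and 18.6 in Z-138 and 58.8, 68.0 and 56.1 in Maver-1. SUSD6, a membrane protein that restrains growth, had 410.8, 416.3 and 477.8 in Z-138 and 799.4, 886.9 and 716.2 in Maver-1. Both were lower in Z-138, at -1.64 ± 0.21 for TP53I3 (limma, adjusted p = 2.78e-05) and -0.87 ± 0.11 for SUSD6 (adjusted p = 2.17e-05). TP53INP1, a nuclear cofactor of p53, was lower by 0.68 ± 0.09 (limma, adjusted p = 2.44e-05), and APAF1, the scaffold of the apoptosome, by 0.36 ± 0.12 (limma, adjusted p = 0.0224). With the mean of all probe sets neither passed, at adjusted p = 0.129 for TP53INP1 and 0.258 for APAF1 (limma). Without Z-138 NTC, Z-138 NIKsh#1, Maver-1 NTC or Maver-1 NIKsh#2, APAF1 did not pass either (limma, adjusted p = 0.052 to 0.104).

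The repair genes DDB2 and XPC, which recognise damaged bases for excision, were higher in Z-138. DDB2 had 393.8, 535.3 and 496.8 in Z-138 NIKsh#1, NIKsh#2 and NTC, against 230.2, 233.1 and 190.5 in Maver-1 (1.11 ± 0.14, limma adjusted p = 1.96e-05). XPC had 119.1, 124.6 and 103.0 in Z-138, against 70.0, 64.2 and 90.5 in Maver-1 (0.62 ± 0.17, limma adjusted p = 0.00786). RRM2B, the p53-inducible subunit of ribonucleotide reductase, was 2.57-fold lower in Z-138, at 382.2, 394.1 and 452.6 against 1112.7, 1104.3 and 954.7 in Maver-1 (-1.36 ± 0.11, limma adjusted p = 2.75e-07). Thus genes of the same role stood on opposite sides. DDB2, XPC and RRM2B did not overlap between the lines, a pattern whose share over all genes was not counted for the untreated arrays. POLH, a polymerase that copies past damage, did not pass, and its 5 probe sets had differences of -0.95 to 0.84.

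Of the metabolic genes 1 of 4 passed, against 60.0% of all genes. SESN1, a sestrin that restrains mTORC1 and oxidative stress, had 288.3, 261.0 and 178.9 in Z-138 NIKsh#1, NIKsh#2 and NTC, against 63.8, 65.5 and 84.1 in Maver-1. It was 3.27-fold higher in Z-138 (1.71 ± 0.19, limma adjusted p = 6.80e-06). Of the remaining genes, BLOC1S2, a subunit of a lysosome-positioning complex, was lower by 0.21 ± 0.07 (limma, adjusted p = 0.0258). Its call was lost without any of Z-138 NTC, Z-138 NIKsh#1, Maver-1 NTC and Maver-1 NIKsh#2 (limma, adjusted p = 0.0551 to 0.112). RPS27L, a ribosomal protein paralogue with a half-site match shown above, differed by 0.04 and did not pass, though another of its probe sets above the filter had -0.45. AEN, a nuclease that aids apoptosis, likewise did not pass.

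**Figure D1:**
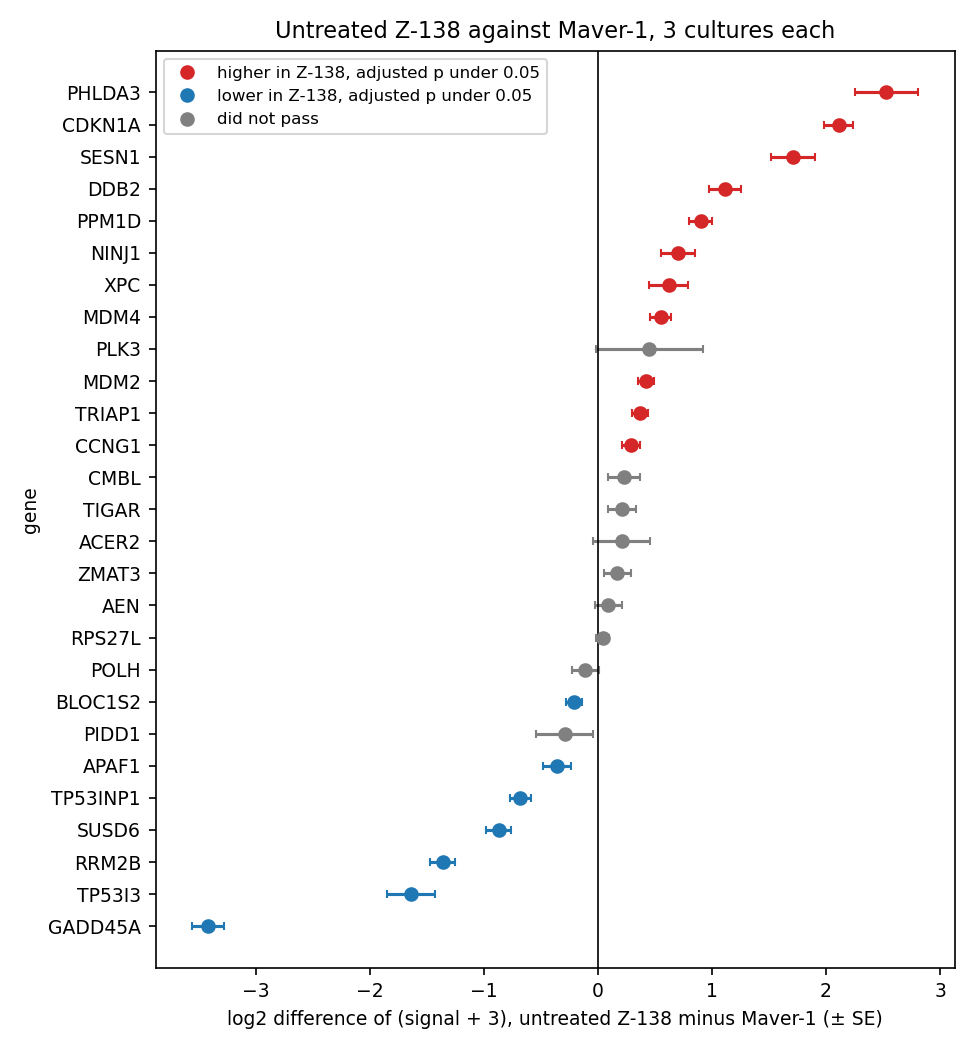
Log2 difference of signal + 3 between untreated Z-138 and Maver-1 for 27 p53 target genes, with bars of ± 1 standard error of the limma model (3 cultures per line). Red points passed as higher in Z-138 (11), blue points as lower (7) and grey points did not pass (9); CDKN1A lies at 2.11 and GADD45A, at -3.42, at the bottom; the place of PHLDA3 depends on the pseudocount, since its Maver-1 signals were under the filter value.

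The separation of the lines held over all 12 arrays for most of these genes. All 6 Z-138 arrays lay above all 6 Maver-1 arrays for 11 of the 27 genes (40.7%, against 16.7% of all genes). These were CDKN1A, MDM2, MDM4, SESN1, XPC, DDB2, TIGAR, PHLDA3, CCNG1, PPM1D and TRIAP1. PHLDA3 passed the signal filter only through Z-138, with Maver-1 signals of 0.3 to 3.7, so its place in this count carries no weight. All 6 lay below for 6 genes (22.2%, against 20.1%), namely TP53I3, RRM2B, TP53INP1, GADD45A, SUSD6 and BLOC1S2. On the arrays with doxycycline, 13 of the 27 genes were higher and 5 lower in Z-138 (against 19.4% and 21.4% of all genes), and the median difference was 0.514 in place of 0.21. The 13 include PHLDA3, with Maver-1 signals of 0.3 to 2.6 on these arrays, so its place carries no weight here either. NINJ1, APAF1 and BLOC1S2 did not pass there (limma, adjusted p = 0.121, 0.627 and 0.177). Without doxycycline, the difference between NIKsh and NTC cultures passed for 0 of the 27 genes (limma, 0 at an unadjusted p under 0.05, against 0.0% of all genes passing and 552 genes at an unadjusted p under 0.05).

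**Figure D2:**
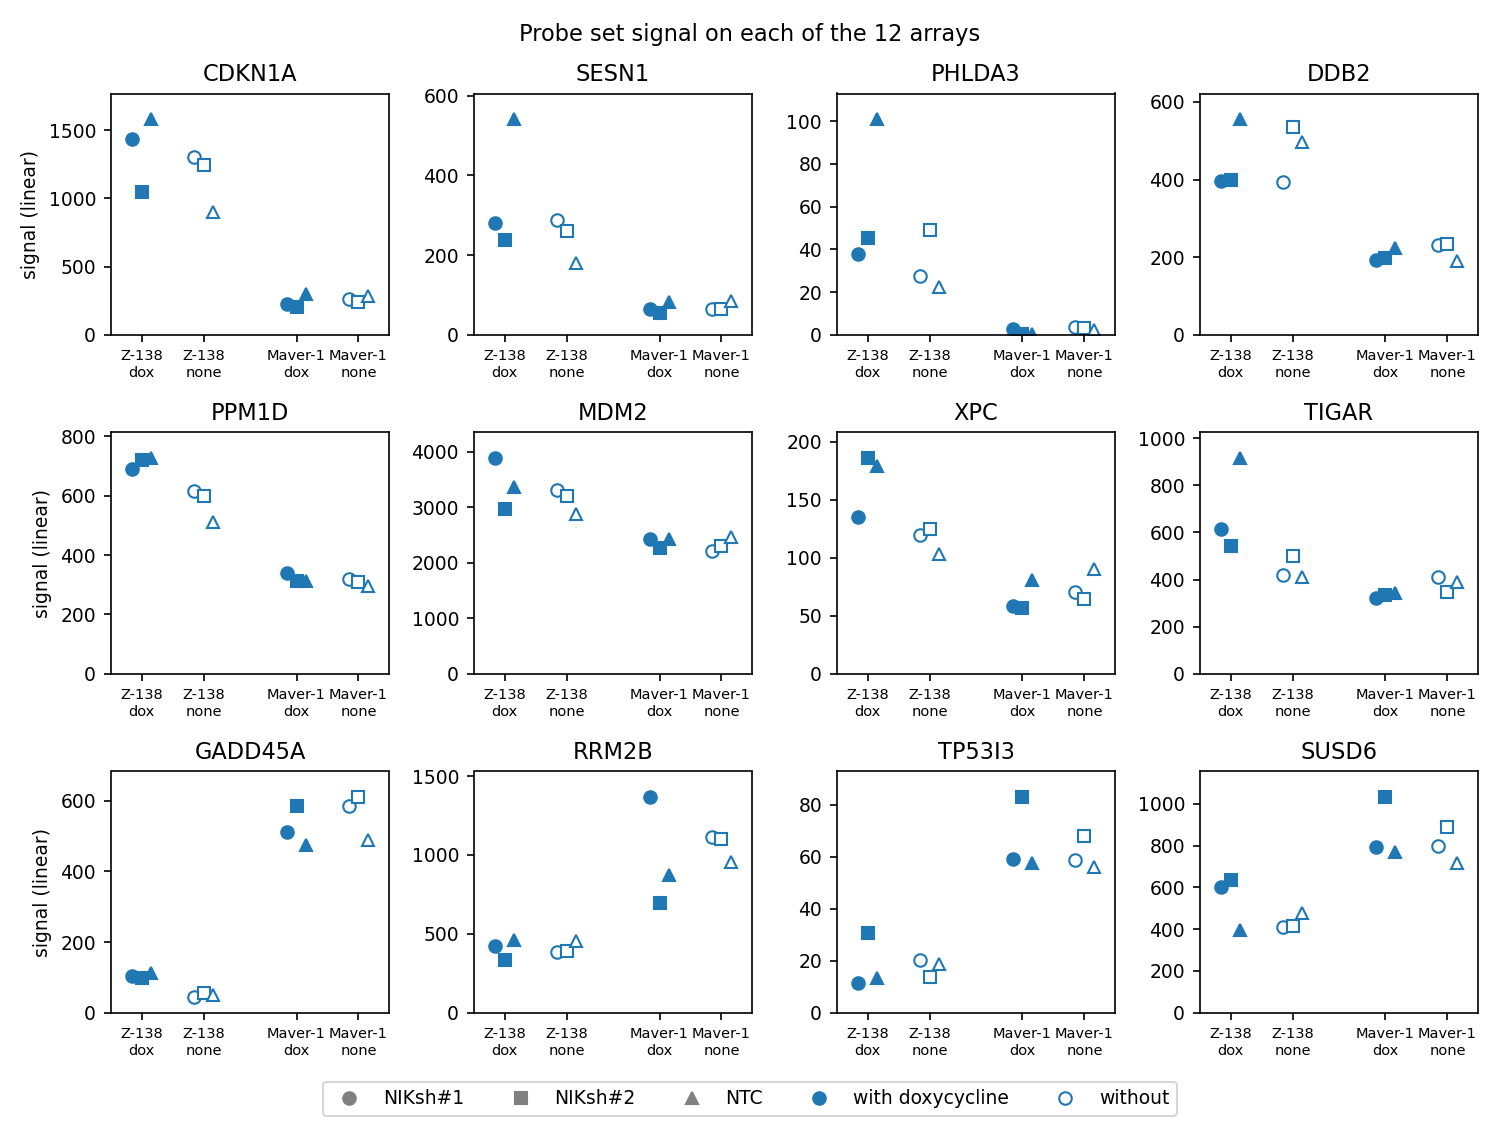
Linear probe set signal of 12 p53 target genes on each array, by line and doxycycline, with filled symbols for doxycycline and open symbols for none, and shapes for the 3 hairpins. The triangle of Z-138 NTC with doxycycline stands out for SESN1 (540.4), PHLDA3 (100.9) and TIGAR (914.1), and GADD45A is higher in all 3 Z-138 cultures with doxycycline.

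The second comparison asked what doxycycline, and with it hairpin expression, did in each line. In Z-138, 1 of 27 genes passed as higher (3.7%, against 0.719% of all genes) and 0 as lower (against 0.546%, and 1.26% in either direction; limma, adjusted p under 0.05). At an unadjusted p under 0.05 there were 11 of 27 genes (40.7%), against 21.4% of all genes. The 11 include PLK3, which passed the signal filter only through the Z-138 arrays with doxycycline and so carries no weight there. The median change was 0.23 log2 units, against 0.04 for all genes. GADD45A was the gene that rose. Its signals were 104.6, 98.4 and 113.4 with doxycycline in Z-138 NIKsh#1, NIKsh#2 and NTC, against 43.8, 55.7 and 49.5 without. All 3 arrays with doxycycline lay above all 3 without, a rise of 1.05 ± 0.15 or 2.06-fold (limma, adjusted p = 0.0413), and the level with doxycycline stayed below every Maver-1 array. The call was lost without Z-138 NIKsh#2 (limma, adjusted p = 0.205) and without any 1 of the Maver-1 cultures (adjusted p = 0.0786 to 0.0939), which share in the estimate of spread. It was also lost with no signal filter (limma, adjusted p = 0.062) and with quantile normalization (adjusted p = 0.052). The ACTB 3' to 5' ratio was also higher with doxycycline in all 3 Z-138 cultures, as given above, and its part in this result was not tested.

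Other genes had positive values in all 3 Z-138 cultures without passing. ZMAT3, a zinc finger protein that binds RNA, had 658.1, 893.5 and 958.3 with doxycycline in Z-138 NIKsh#1, NIKsh#2 and NTC, against 605.5, 482.4 and 545.1 without (0.61 ± 0.16, limma adjusted p = 0.0902), though its 4 probe sets above the filter ran from -0.41 to 0.89 in NIKsh#2. TIGAR, a sugar bisphosphatase that slows glycolysis, had 613.9, 543.6 and 914.1 with doxycycline, against 417.9, 498.6 and 410.2 without (0.61 ± 0.18, limma adjusted p = 0.112). For both genes the arrays with and without doxycycline did not overlap. TRIAP1 had 2082.0, 1841.1 and 2570.5 with doxycycline, against 1736.8, 1786.1 and 1711.3 without (0.30 ± 0.10, limma adjusted p = 0.134). XPC had 135.0, 185.5 and 178.5 with doxycycline, against 119.1, 124.6 and 103.0 without (0.51 ± 0.18, limma adjusted p = 0.153). ACER2, an alkaline ceramidase, had 30.6, 21.9 and 32.7 with doxycycline, against 16.9, 18.5 and 12.7 without (0.72 ± 0.26, limma adjusted p = 0.169). For TRIAP1, XPC and ACER2 too, each array with doxycycline lay above every one without. The share of all genes that separate in this way was not counted, here or for GADD45A. In all, 10 of 27 genes had a positive change in each Z-138 culture (37.0%, against 19.7% of all genes), and AEN was the gene with a negative change in each (3.7%, against 15.3%). PLK3, one of the 10, passed the signal filter only through the Z-138 arrays with doxycycline (24.6 to 30.2). Its means of 11.2 in untreated Z-138 and 8.5 in Maver-1 lay under the filter value, so its place in this count carries no weight.

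In Maver-1, 0 of 27 genes passed in either direction and 0 were at an unadjusted p under 0.05, against 0.0% of all genes passing and 247 genes (2.14%) at an unadjusted p under 0.05 (limma). The median change was 0.0 log2 units. CDKN1A had 228.8, 204.7 and 296.1 with doxycycline in Maver-1 NIKsh#1, NIKsh#2 and NTC, against 263.3, 239.3 and 280.8 without. GADD45A had 510.7, 584.6 and 475.0 with doxycycline, against 586.6, 609.9 and 488.8 without. Both genes overlapped between the conditions. The difference of the doxycycline effect, Z-138 minus Maver-1, passed for 0 of 27 genes, with 6 at an unadjusted p under 0.05 (limma, against 0.0% of all genes passing and 1578 genes at an unadjusted p under 0.05). For GADD45A it was 1.15 ± 0.21 (limma, adjusted p = 0.149). The rise of GADD45A in Z-138 was thus not shown to differ from its value in Maver-1.

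**Figure D3:**
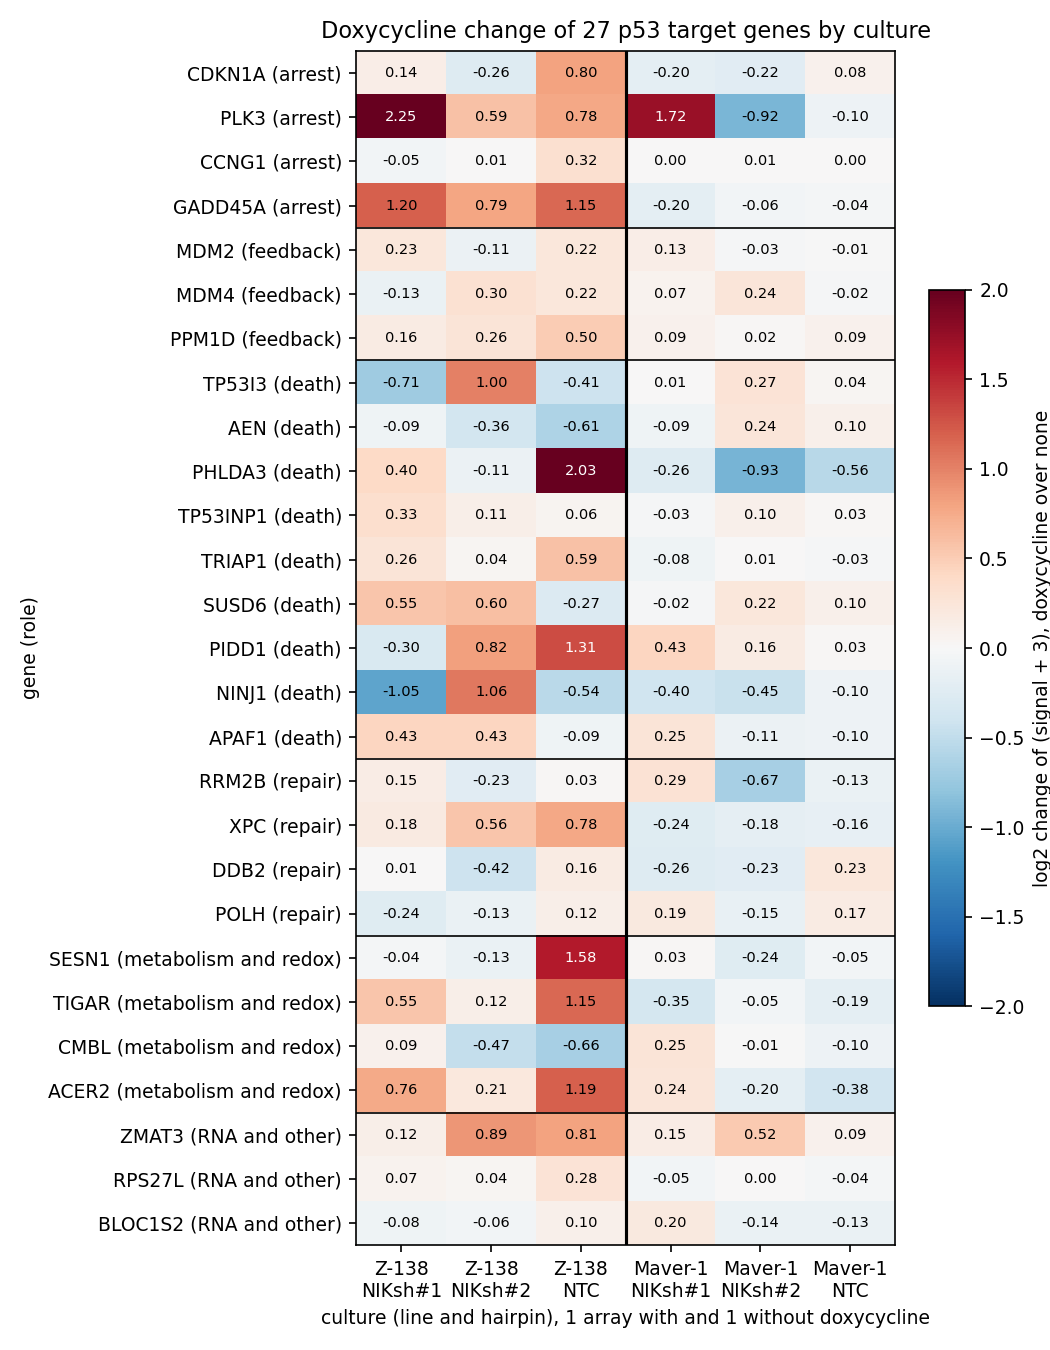
Log2 change of signal + 3, doxycycline over none, for 27 p53 target genes (rows, by role) in each of the 6 cultures (columns), with red for higher and blue for lower. Each cell is 1 pair of arrays; the Z-138 NTC column holds the changes of 2.03 for PHLDA3 and 1.58 for SESN1, and the Maver-1 NTC column lies between -0.38 and 0.23 apart from PHLDA3, whose Maver-1 cells come from signals of 0.3 to 3.7 and hold no readable change.

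The changes were then read culture by culture, with 1 pair of arrays each and so with no replicate check. The widest set of large values was in Z-138 with the control hairpin. There, 11 of 27 genes were at least 1.5-fold higher with doxycycline (40.7%, against 13.9% of all genes) and 2 at least 1.5-fold lower (7.41%, against 10.7%), and the median change was 0.28, against 0.07 for all genes. In Z-138 NIKsh#1, 3 genes were higher (against 6.82% of all genes) and 2 lower (against 7.69%). In Z-138 NIKsh#2, 7 genes were higher (25.9%, against 12.8%) and 0 lower (against 7.07%). The medians were 0.14 and 0.11 in these NIKsh cultures. PLK3 is among the higher genes of all 3 Z-138 cultures. It carries no weight in these counts, since only the Z-138 arrays with doxycycline brought it past the signal filter. In Maver-1 NIKsh#1 1 gene was higher and 0 lower (against 2.70% and 2.76%), in NIKsh#2 0 were higher and 3 lower (against 4.15% and 5.36%), and in NTC 0 were higher and 0 lower (against 2.54% and 1.95%). The gene counted in Maver-1 NIKsh#1 was PLK3 (10.2 with doxycycline, 1.0 without). The 3 in NIKsh#2 were PLK3 (3.8 with, 9.9 without), PHLDA3 (0.3 with, 3.3 without) and RRM2B. The PLK3 and PHLDA3 signals lay under the filter value, so only RRM2B had a readable change in these counts.

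PHLDA3 and SESN1 carried the largest values of Z-138 NTC. PHLDA3 had 100.9 with doxycycline in Z-138 NTC, against 22.5 without, while it had 37.6 and 45.3 with doxycycline in NIKsh#1 and NIKsh#2, against 27.7 and 49.3 without. SESN1 had 540.4 with doxycycline in Z-138 NTC, against 178.9 without, while it had 281.1 and 237.6 with doxycycline in the NIKsh cultures, against 288.3 and 261.0 without. The NTC array with doxycycline was the highest of the 12 for both genes. CDKN1A had 1579.4 with doxycycline in Z-138 NTC, against 903.6 without, while the NIKsh cultures had 1437.4 and 1043.1 with doxycycline, against 1304.3 and 1248.2 without. TIGAR, whose signals are given above, had log2 changes of 1.15 in NTC and of 0.55 and 0.12 in NIKsh#1 and NIKsh#2. For each of these 4 genes the untreated NTC array was also the lowest of the 3 untreated Z-138 arrays, so the changes contain a low start as well as a high end. PIDD1, the scaffold that activates caspase-2, had 134.5, 207.3 and 154.4 with doxycycline in Z-138 NIKsh#1, NIKsh#2 and NTC, against 166.3, 116.0 and 60.6 without, and its NTC change of 1.31 rests on that low untreated value.

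Other genes had their largest values with the NIKsh hairpins. PLK3, a stress kinase of the polo family, had 30.2 with doxycycline in Z-138 NIKsh#1, against 4.0 without, and 26.2 in NIKsh#2, against 16.4. In Maver-1 NIKsh#1 it had 10.2 with doxycycline, against 1.0 without, and in NIKsh#2 3.8, against 9.9. These signals lie close to the filter of 12.55, and the change differed in sign between the Maver-1 cultures. SUSD6 had 601.6 and 634.3 with doxycycline in Z-138 NIKsh#1 and NIKsh#2, against 410.8 and 416.3 without, while NTC had 396.7 with doxycycline, against 477.8 without. NINJ1 had 85.3 with doxycycline in Z-138 NIKsh#1, against 180.4 without, but 291.2 in NIKsh#2, against 138.5. The hairpins thus gave opposite values for NINJ1, and likewise for TP53I3, with changes of -0.71 and 1.00. RRM2B had 694.9 with doxycycline in Maver-1 NIKsh#2, against 1104.3 without, and 1365.1 in NIKsh#1, against 1112.7.

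The third comparison set the NIKsh hairpins against the control hairpin, to separate the knockdown from doxycycline and hairpin expression as such. Within Z-138, 0 of 27 genes passed for a smaller or a larger change with the NIKsh hairpins (limma, against 0.329% of all genes higher, 0.26% lower and 0.589% either way), and 8 were at an unadjusted p under 0.05 (29.6%, against 14.9% of all genes). The median difference, NIKsh minus NTC, was -0.22, against -0.05 for all genes, and 8 of 27 differences were positive (29.6%, against 45.1%). SESN1 had the smallest p, at -1.66 ± 0.36 (limma, adjusted p = 0.0853). With NIKsh#1 or NIKsh#2 of Z-138 left out, the SESN1 difference was -1.71 or -1.61. With NIKsh#1 or NIKsh#2 of Maver-1 left out, it was -1.66. Such fits have fewer residual degrees of freedom, so only their effect sizes are given. CDKN1A had -0.86 ± 0.26 (limma, adjusted p = 0.185), and -1.06 to -0.66 with single cultures left out. PHLDA3 had -1.88 ± 0.57 (limma, adjusted p = 0.182) and TIGAR -0.81 ± 0.30 (adjusted p = 0.253). In the other direction, SUSD6 had 0.84 ± 0.24 (limma, adjusted p = 0.155).

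The Z-138 NTC change lay at least 1.5-fold above both Z-138 NIKsh changes for CDKN1A, SESN1, TIGAR and PHLDA3 (4 of 27, 14.8%, against 6.93% of all genes). It lay at least 1.5-fold below both for SUSD6 (3.7%, against 8.43%). These differences rest on 1 NTC pair, which the model takes to vary like the other pairs. That pair also held the largest shift in the ACTB ratio, at 6.34 with doxycycline, against 2.33 without. Marker genes differed in it as well, with no test. Of 8 B cell and mantle cell lymphoma markers 0 were at least 1.5-fold higher and 3 lower (against 13.9% and 10.7% of all genes). Of 5 stromal, epithelial and endothelial markers past the filter over the 12 arrays, 3 were higher and 0 lower. In Z-138 itself only 3 of the 5 had a mean at or above the filter value. EPCAM (1.3 to 3.8 in Z-138) and KRT18 (1.5 to 11.1) passed through Maver-1, so their Z-138 changes cannot be read. CD5, one of the 8, had no readable level in Z-138 either (0.5 to 1.6). Marker values differed in the NIKsh cultures of Z-138 too, with the same limit. In each of them 1 of these 5 was higher and 2 lower. Of the 8, 1 was higher and 0 lower in NIKsh#1, and 1 higher and 1 lower in NIKsh#2. Over the 3 Z-138 arrays, the summed B cell marker signal ran from 6553.5 to 10769.2 with doxycycline and from 8758.1 to 9666.4 without. The summed T and NK cell marker signal ran from 88.8 to 197.7 with doxycycline and from 148.5 to 218.9 without, and that of the monocyte markers from 14.4 to 32.6 with doxycycline and from 13.1 to 21.3 without. The stromal, epithelial and endothelial sum ran from 202.9 to 664.9 with doxycycline and from 424.1 to 542.4 without. The part of any of these in the result was not tested.

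**Figure D4:**
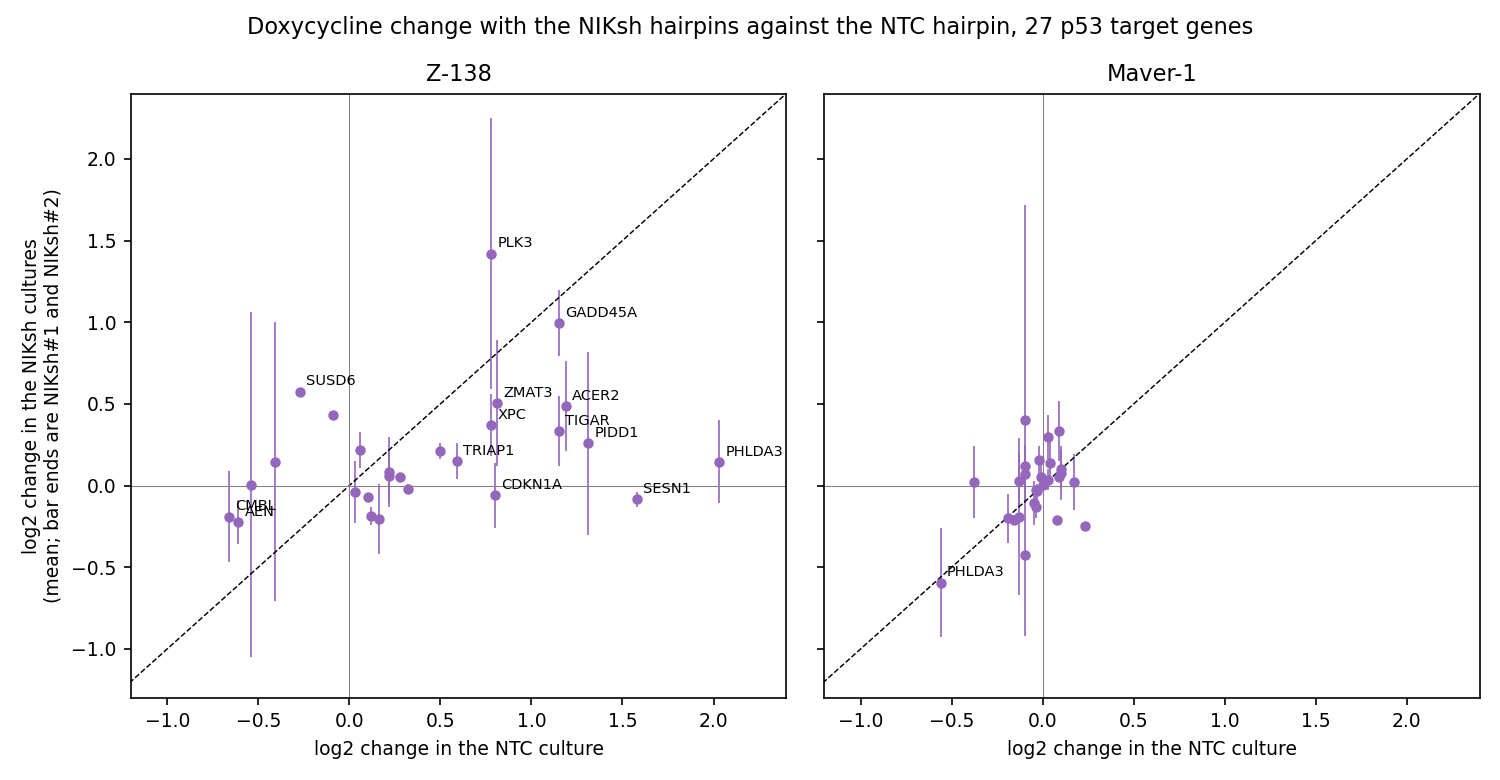
Log2 doxycycline change of 27 p53 target genes in the NIKsh cultures (vertical axis, mean of both hairpins, bar ends at the single hairpins) against the change in the NTC culture (horizontal axis), for Z-138 and Maver-1; the dashed line marks equal change. In Z-138, SESN1 and PHLDA3 lie far to the right of the line, at NTC changes of 1.58 and 2.03, and SUSD6 lies above it; in Maver-1 most genes gather near 0, and PHLDA3 is there under the filter value.

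By line, the NIKsh hairpins alone gave 1 gene in Z-138 and 0 in Maver-1. In Z-138 NIKsh (2 cultures), GADD45A rose by 0.99 ± 0.20 (limma, adjusted p = 0.0404; 3.7% of the genes, against 1.06% of all genes higher and 1.08% lower), and NTC had a change of 1.15 in the same line. This call was lost with a pseudocount of 16, with no signal filter and with quantile normalization (limma, adjusted p = 0.0579, 0.0674 and 0.0622). SUSD6 followed at 0.58 ± 0.14 (limma, adjusted p = 0.0705). In Maver-1 NIKsh, 0 genes passed and 0 were at an unadjusted p under 0.05 (limma, against 0.0% of all genes passing and 459 genes at an unadjusted p under 0.05). NIKsh minus NTC within Maver-1 also gave 0 genes, with 0 at an unadjusted p under 0.05 (limma, against 0.0% of all genes passing and 171 genes at an unadjusted p under 0.05). PHLDA3 gave no change to read in Maver-1, where its signals of 0.3 to 3.7 lay well below the filter value.

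With both lines joined, 0 of 27 genes passed in the 4 NIKsh cultures, and ZMAT3 and SUSD6 were at an unadjusted p under 0.05 (limma, against 0.0% of all genes higher, 0.0433% lower and 1037 genes at an unadjusted p under 0.05). ZMAT3 had 0.42 ± 0.16 and SUSD6 0.34 ± 0.13 (limma, adjusted p = 0.45 for both). ZMAT3 and PPM1D were the genes with a positive change in all 4 NIKsh cultures (7.41%, against 9.95% of all genes), but not on every probe set. The other PPM1D probe set had -0.25 and -0.30 in Z-138 NIKsh#1 and NIKsh#2, and another of ZMAT3 had -0.41 in Z-138 NIKsh#2 and -0.32 in Maver-1 NIKsh#1. Of the 27 genes, 0 had a negative change in all 4 (against 8.29%). In the 2 NTC cultures 0 genes passed, and SESN1 and CDKN1A were at an unadjusted p under 0.05 (limma, against 0.0% of all genes passing and 387 genes at an unadjusted p under 0.05). The NIKsh minus NTC difference passed for 0 genes, with 1 at an unadjusted p under 0.05 (limma, against 0.0% of all genes passing and 627 genes at an unadjusted p under 0.05). That gene was CDKN1A, at -0.57 ± 0.23 (limma, adjusted p = 0.884). MAP3K14, the target of the hairpins, did not itself pass for NIKsh in the same model, as given above.

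Some genes are read by several probe sets, and in Z-138 NTC these did not all move together. MDM2 had 9 probe sets above the filter with changes from -2.15 to 0.48, of which 4 were positive. MDM4 had 5, and the brightest, used here, was at 0.22 while the other 4 lay between -2.16 and -1.55. POLH had 5, with changes from -1.27 to 0.78. PHLDA3, by contrast, had changes of 2.03 and 2.08, PIDD1 of 0.36 and 1.31, and RPS27L of 0.28 to 0.58 over its 3 probe sets. ZMAT3 had 4, from -0.27 to 0.81, and PPM1D had 2, at -0.09 and 0.50. The direction of MDM2, MDM4, POLH, ZMAT3 and PPM1D in that culture therefore depends on the probe set, and it is given here for the brightest only. The cause was not tested.

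**Figure D5:**
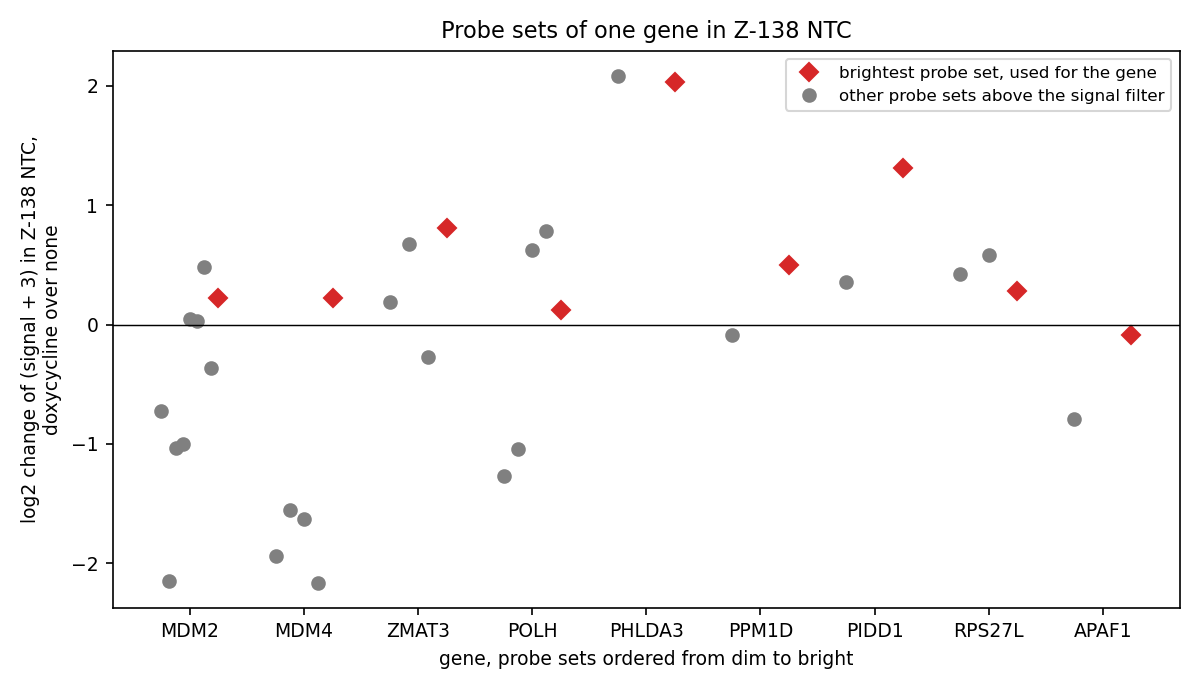
Log2 doxycycline change in Z-138 NTC of every probe set above the signal filter, for 9 p53 target genes with more than 1 such probe set. Red diamonds are the brightest probe set of a gene, which stands for it elsewhere, and grey circles the others; the MDM4 circles lie far below its diamond, and both PHLDA3 points lie near 2.

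The wider pathway was read from 3 further lists. Of 28 other p53 targets, 11 were higher and 8 lower in untreated Z-138 (39.3% and 28.6%, limma, adjusted p under 0.05), against 25.4% and 34.6% of all genes. SESN2, a second sestrin, was higher by 2.16 ± 0.15, CASP10, an initiator caspase, by 1.97 ± 0.17, and the death receptor gene FAS by 1.56 ± 0.18 (limma, adjusted p = 8.31e-08, 6.43e-07 and 8.85e-06). In Z-138 NTC, 7 of the 28 were at least 1.5-fold higher with doxycycline and 0 lower (against 13.9% and 10.7% of all genes). FAS was among them. It had 37.9 and 48.8 with doxycycline in Z-138 NIKsh#1 and NIKsh#2, against 83.5 and 83.9 without, while NTC had 395.8 with doxycycline, against 92.6 without. The hairpins and the control thus lay on opposite sides, but the control is 1 NTC pair, the one with the largest ACTB shift given above. For NIKsh minus NTC in Z-138, 1 gene of the 28 passed (3.57%, against 0.26% of all genes lower and 0.589% either way). That gene was FAS, at -2.97 ± 0.43 (limma, adjusted p = 0.0218). It did not pass with the mean of all FAS probe sets (-2.41, limma adjusted p = 0.0642) or with no signal filter (adjusted p = 0.0537). In Maver-1, FAS lay between 22.7 and 29.7 on all arrays.

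Of 22 p53 regulators, 5 were higher and 8 lower in untreated Z-138 (22.7% and 36.4%, near the 25.4% and 34.6% of all genes). HIPK2, a kinase that phosphorylates p53, had 796.3 and 952.6 with doxycycline in Z-138 NIKsh#1 and NIKsh#2, against 545.7 and 600.9 without, while NTC had 379.1 with doxycycline, against 434.2 without. Its NIKsh minus NTC difference in Z-138 did not pass (limma, adjusted p = 0.123). In Z-138 NIKsh alone, HIPK2 was the 1 regulator that rose (4.55%, against 1.06% of all genes), by 0.60 ± 0.12 (limma, adjusted p = 0.0371). That call was lost with no signal filter and with the mean of all probe sets (limma, adjusted p = 0.0547 and 0.283). Without Z-138 NIKsh#2 the HIPK2 value was 0.54, from the 1 culture that was left. Of 18 cell cycle genes that p21 and the DREAM repressor complex are known to lower, 4 were higher and 5 lower in untreated Z-138 (22.2% and 27.8%, against 25.4% and 34.6% of all genes). AURKB, a mitotic kinase, had 737.6, 688.7 and 683.2 with doxycycline in Z-138 NIKsh#1, NIKsh#2 and NTC, against 1087.8, 1012.0 and 1256.3 without. These arrays did not overlap, a pattern whose share over all genes was not counted. The value of -0.66 ± 0.14 did not pass (limma, adjusted p = 0.0529). In Z-138, 0 of the 18 passed, with 4 at an unadjusted p under 0.05 (limma, 22.2%, against 21.4% of all genes).

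The 4 measured genes under the filter gave no level to compare. GDF15, a secreted stress cytokine, lay between 1.0 and 9.1 on the 12 arrays, and PLK2, a polo kinase, between 1.8 and 8.1. SPATA18, a mitochondrial quality control protein, lay between 0.4 and 2.5, and EDA2R, a receptor of the tumour necrosis factor family, between 0.4 and 6.1.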

How the data were processed

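The authors deposited a linear signal intensity per probe set, made with MAS5 per the submitters' processing notes. After trimming 2 percent of probe sets at each end, the mean was 150.02 on every array, which shows a common scaling by the authors. Of 54675 probe sets, 41097 had 1 gene symbol, 1801 several, and 11777 were not named in the platform annotation. Values were taken to log2(signal + 3) from the deposited intensities, which understates the change of dim genes. Genes with a mean signal under 12.55 were left out, and the depth of an array is not defined, so that the number of arrays limits the precision.

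Two-sided moderated tests with a variance trend came from limma 3.58.1 (R 4.3.3), fitted across 11548 genes, with Benjamini-Hochberg adjustment over all of them and a threshold of 0.05. Errors after ± are standard errors of the model. Culture was a block, because the labels split each culture between both media. Deviations of paired arrays from the mean of their line and condition correlated across genes at -0.110 to 0.331, below 0.1 in 3 of 6 cultures, so the pairing comes from the labels and not from this check. There were 4 residual degrees of freedom by line and by construct, 2 by line and construct, and 3 for the untreated arrays. Tested on simulated data for the doxycycline effect in Z-138, with 100 of 11548 genes changed by 1 log2 unit and 100 by 2, the model recovered 61 and 95 percent.

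The 34 genes, their roles and the other lists (p53 regulators, other p53 targets, genes lowered by p21 and DREAM, and markers of B cells, T and NK cells, monocytes, and stromal, epithelial and endothelial cells) were chosen with earlier results of these data known. Any of the 34 genes could be named. Array values are given for those that passed and for up to 6 per comparison with the smallest p or, in a single pair, the largest change, and up to 4 per other list with the smallest p could be named. FAS, SESN2, CASP10 and the values of some further genes were chosen after they were seen. Alternatives were another pseudocount (1 or 16), the mean of all probe sets, no signal filter, quantile normalization, each culture left out, no block, and the arrays with doxycycline for the line comparison.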

Additional observations from a re-analysis of the deposited data

Results flagged for a closer look

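XPC, TIGAR and GADD45A had a positive doxycycline change in each of the 3 Z-138 cultures and a negative change in each of the 3 Maver-1 cultures, a pattern held by 11.1% of the 27 p53 target genes and by 3.98% of all genes. The difference, Z-138 minus Maver-1, was 0.70 for XPC, 0.81 for TIGAR and 1.15 for GADD45A, and in limma none of these 3 passed (adjusted p = 0.303, 0.277 and 0.149). In Z-138 the changes of GADD45A were 1.20, 0.79 and 1.15 in NIKsh#1, NIKsh#2 and NTC, and in Maver-1 they were -0.20, -0.06 and -0.04. XPC had 0.18, 0.56 and 0.78 in Z-138, and -0.24, -0.18 and -0.16 in Maver-1. TIGAR had 0.55, 0.12 and 1.15 in Z-138, and -0.35, -0.05 and -0.19 in Maver-1. The ACTB 3' to 5' ratio was higher with doxycycline in all 3 Z-138 cultures and in 1 of 3 Maver-1 cultures, and its part in the pattern was not tested.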

How the results depend on the processing

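Of the counts and medians recomputed for the comparisons, 459 stayed within the replicate spread or within 1.5 times the count, 54 did not, and of the genes tested singly none changed sign. Calling in the doxycycline comparisons was fragile. For doxycycline in Z-138, 0 of the p53 target genes were higher with no signal filter and 0 with quantile normalization (1 as reported), and the median was 0.117 with the mean of probe sets. Over all genes this comparison called 146 genes, but 15 with the mean of probe sets, 24 with quantile normalization and 0 with no filter. In Z-138 NIKsh, 0 were higher with a pseudocount of 16, with no filter and with quantile normalization, and the median was 0.102 with a pseudocount of 16, 0.122 with the mean of probe sets, 0.086 with no filter and 0.075 with quantile normalization, against 0.14. The calls over all genes were 126 with the mean of probe sets and 164 with no filter, against 247. NIKsh minus NTC in Z-138 called 68 genes, 18 with the mean of probe sets and 44 with no filter. The untreated line difference had a median of 0.299 with quantile normalization and 0.514 on the arrays with doxycycline, and quantile normalization moved its calls over all genes to 3520 higher and 3507 lower, in place of 2929 and 3998.

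By culture, Z-138 NIKsh#1 had 1 gene lower with a pseudocount of 16 and 5 higher with quantile normalization. Z-138 NIKsh#2 had a median of 0.009 with the mean of probe sets and 1 gene lower with quantile normalization. The Z-138 NTC median was 0.177 with the mean of probe sets and 0.124 with quantile normalization, and ZMAT3 there was at 0.36 with the mean of probe sets, against 0.81. Maver-1 NIKsh#1 had 0 higher with the mean of probe sets. Maver-1 NIKsh#2 had 1 lower with a pseudocount of 16 and with the mean of probe sets, 1 higher with no filter, and medians of 0.01 with the mean of probe sets and 0.008 with quantile normalization. Maver-1 NTC had 1 lower with a pseudocount of 1, 1 higher and 1 lower with no filter, and a median of 0.003 with quantile normalization. The cause of these shifts was not tested, except that no filter tests more genes.

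Leaving out each culture in turn gave 0 to 3 genes higher with doxycycline in Z-138, while 0 to 719 of all genes were, and 0 to 1 for Z-138 minus Maver-1, while 0 to 264 of all genes were. The median of NIKsh minus NTC ran from -0.264 to 0.1, the higher value without Z-138 NTC. Z-138 NIKsh had 1 to 4 genes higher, 0 to 1 lower and medians of 0.111 to 0.144, with 4 higher without Z-138 NIKsh#1, where 553 of all genes were higher, against 122 with every culture. The Maver-1 NIKsh median ran from -0.051 to 0.02. NIKsh minus NTC in Z-138 had 0 to 1 gene higher and 0 to 2 lower, while 37 to 417 of all genes were higher and 31 to 693 lower, and medians of -0.325 to -0.224. The untreated line median ran from 0.132 to 0.255 and that of untreated NIKsh minus NTC from -0.015 to 0.041. NIKsh minus NTC within a line could not be fitted without the NTC culture of that line. Without the replicate block for culture, 1 gene was again higher with doxycycline in Z-138, GADD45A (limma, adjusted p = 0.0123), and no count of p53 target genes moved by over 1.5 times, although over all genes the NIKsh comparison called 16 in place of 5. The 12 arrays, 1 per culture and condition, limit what can be called.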
